A study of Homo sapiens with 20 samples.

Results

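The U937T_EVI1-HA clones E10 and E14, harvested 24 h after tetracycline (tet) had been withdrawn, are described here on 4 of the 20 arrays of the series: 1 array without and 1 with tet for each clone. They were chosen by their labels alone, and each culture without tet was set against the culture of its own clone with tet. U937 is a human leukemia line of monocytic type. U937T is its derivative with a tet-repressible system, E10 and E14 carry an HA-tagged human EVI1 cDNA under that system, and tet keeps the transgene off. All cells grew in puromycin and, apart from parental U937T, in hygromycin, and both cultures of a pair were washed, so that they differ in tet alone. The remaining arrays hold both clones at 6, 12 and 48 h and, at 48 h, the control lines, which are the empty vector clone P2 (U937T_vec) and U937T. Control lines were not hybridized at 24 h. A change that EVI1 brought about and a change that follows the removal of tet can therefore not be told apart at 24 h, and changes in P2 and U937T at 48 h are given for several of the genes with large changes and, as medians, for some of the lists. E10, E14 and P2 are single clones.

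EVI1, a product of the MECOM gene, is a zinc finger transcription factor of hematopoietic stem cells. It binds DNA, among others at GATA-like motifs, recruits co-repressors, and is overexpressed in acute myeloid leukemia with rearrangements of chromosome band 3q26, where it marks a poor outcome. In myeloid cells it is known for blocking differentiation.

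Levels are log2 intensities from Robust Multi-array Analysis (RMA), of which an increment of 1 is a doubling. The change at 24 h is the level without tet minus that with tet, averaged over E10 and E14. It is given with its standard error (SE) and was tested with limma over 17860 genes, each read by its probe set with the highest mean, and a gene was called at an adjusted p under 0.05. As replicates of EVI1 induction the data hold 2 clones, and most of the residual spread comes from the other time points. The difference between the 3′ and 5′ probe sets of actin and GAPDH, which grows as RNA degrades, was 0.69 with and 0.59 without tet in E10 and 1.52 with and 1.40 without tet in E14. The E14 arrays at 24 h had the highest values of the series (0.19 to 1.06 on the 16 arrays of other times), and the counts of called genes, over all genes and by list, are therefore also given without them. Fewer cells of a type and less RNA per cell cannot be told apart in bulk RNA.

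The EVI1 transcript was read by 1 of 5 MECOM probe sets. Its level went from 7.26 to 9.64 in E10 and from 7.34 to 9.60 in E14. The change was 2.32 (SE 0.21, limma adjusted p = 5.1e-06), or 4.99-fold. With tet, this probe set lay between 7.06 and 7.34 on all arrays of the clones, whereas it lay between 5.91 and 6.90 in P2 and U937T at 48 h. At 24 h its signal was thus high without tet and low with tet in both clones, as the labels of the 4 arrays say. The change at 12 h had been 2.44 in E10 and 2.86 in E14, and its difference from that at 24 h was not called (-0.33, SE 0.29, limma adjusted p = 0.67). Each of the other 4 MECOM probe sets stayed under 3.38 on all 4 arrays.

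Over all genes, 1423 were higher (7.97%) and 1636 lower (9.16%) at 24 h without tet, all of them with the same sign in both clones. Of these, 173 and 175 changed at least 2-fold. The counts were 525 and 766 without the E10 pair and 460 and 584 without the E14 pair, fits in which the remaining clone is assumed to vary like the other groups. The changes in E10 and in E14 had a Pearson correlation of 0.763 over the genes, which are no independent replicates. At 12 h, limma called 3 genes higher (0.0168%) and 2 lower (0.0112%). Few changes were thus called at 12 h, when the EVI1 transcript without tet was already at 9.52 in E10 and 9.92 in E14. The changes in E10 and E14 at 12 h had a correlation of -0.08. The 3′ to 5′ difference at 12 h was 0.55 with and 0.80 without tet in E10. In E14 it was 1.02 with and 0.46 without tet. Whether this lowered the number of calls at 12 h was not tested.

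**Figure D1:**
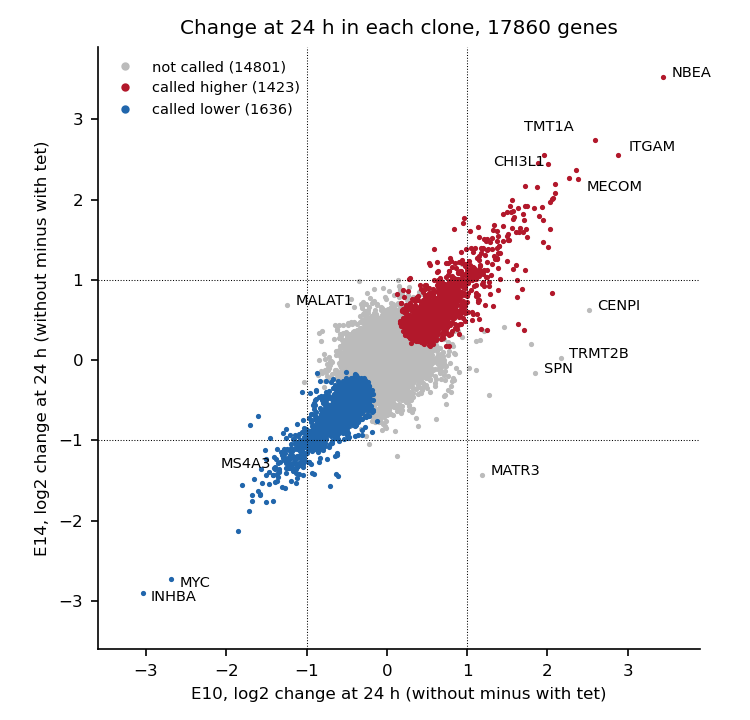
Log2 change at 24 h in E10 (x axis) against that in E14 (y axis), 1 point per gene, with the called genes in red (1423 higher) and blue (1636 lower) and dotted lines at 2-fold. NBEA lies farthest up (3.44 and 3.53) and INHBA farthest down (-3.04 and -2.90), and the named grey genes on the right (MATR3, SPN, TRMT2B, CENPI) moved in E10 far more than, or against, E14.

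NBEA, which encodes the scaffold protein neurobeachin, had the largest increase. Its level went from 5.92 to 9.36 in E10 and from 5.96 to 9.49 in E14, and it rose by 3.49 (SE 0.13, limma adjusted p = 5.3e-09). Its second probe set changed by 3.22 in E10 and 3.43 in E14. NBEA was among the 3 genes already called at 12 h, and in the control lines it changed at 48 h by 2.91 in P2 and 3.01 in U937T. ITGAM, the integrin alpha chain CD11b of maturing myeloid cells, went from 5.09 to 7.97 in E10 and from 5.70 to 8.25 in E14, a change of 2.72 (SE 0.15, limma adjusted p = 1.1e-07). This rests on 1 probe set, as a further ITGAM probe set moved by -0.18 in E10 and -0.07 in E14. TMT1A, a thiol methyltransferase, went from 6.89 to 9.48 in E10 and from 6.60 to 9.35 in E14 and rose by 2.67 (SE 0.16, limma adjusted p = 2.5e-07). Its other probe sets moved less, by 1.14, 0.56 and 0.07 in E10 and by 0.20, 0.21 and 0 in E14. CHI3L1, a secreted chitinase-like protein of macrophages, went from 6.82 to 9.17 in E10 and from 6.71 to 9.08 in E14 and rose by 2.36 (SE 0.16, limma adjusted p = 7.4e-07). ITGAM (by 3.84 in P2 and by somewhat more in U937T), TMT1A (by 1.86 in P2 and 1.41 in U937T) and CHI3L1 (by 1.54 in P2 and 0.97 in U937T) were also higher without tet in the control lines at that time. In all 4 genes both arrays without tet lay above both arrays with tet, which over all genes held for 25.4% in this direction and for 25.0% in the other. The remaining genes among the 12 largest increases, next to MECOM itself, were ITGB2-AS1 (2.27), VWA5A (2.25), C12orf75 (2.22), KMO (2.17), which encodes an enzyme of tryptophan breakdown, BAG3 (2.14), SH3TC1 (2.09) and ITLN1 (2.05), a lectin for microbial sugars. ITGB2-AS1 is an antisense transcript of the integrin gene ITGB2, whose own change of 0.37 was not called (limma adjusted p = 0.051). A second ITGB2-AS1 probe set changed by 0.77 in E10 and 0.77 in E14. Second probe sets of VWA5A (0.25 in E10 and 0.29 in E14) and SH3TC1 (0.02 in E10 and 0.37 in E14) moved little.

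INHBA, whose product forms the cytokine activin A, had the largest decrease. Its level went from 10.66 to 7.62 in E10 and from 11.01 to 8.10 in E14, and it fell by 2.97 (SE 0.13, limma adjusted p = 2.1e-08). The control lines changed at 48 h by -1.21 in P2 and -1.39 in U937T. MYC, a transcription factor that drives growth, went from 11.37 to 8.69 in E10 and from 11.14 to 8.41 in E14 and fell by 2.71 (SE 0.15, limma adjusted p = 1.1e-07), or 6.52-fold. The drop in MYC was of the same size in both clones (-2.68 in E10, -2.73 in E14), and at 48 h the control lines changed by -1.08 in P2 and -0.74 in U937T. CCDC26, a long noncoding RNA, went from 7.79 to 5.93 in E10 and from 7.79 to 5.66 in E14 and fell by 1.99 (SE 0.23, limma adjusted p = 3.6e-05). Among the others of the 12 largest decreases were genes of transport and iron uptake, namely ATP8B4 (-1.80), a phospholipid flippase, and STEAP3 (-1.68), a ferrireductase, and the gene of the adaptor TASL (-1.72), which links endosomal Toll-like receptors to IRF5. Both chains of the interleukin-18 receptor, IL18R1 and IL18RAP, fell together: IL18R1 went from 7.84 to 6.33 in E10 and from 8.07 to 6.30 in E14 (-1.64) and IL18RAP from 7.64 to 6.06 in E10 and from 8.14 to 6.47 in E14 (-1.62). TAF4B (-1.63), a subunit of the general factor TFIID, WDR3 (-1.62), a protein of the small ribosomal subunit processome, ADAT2 (-1.58), a tRNA deaminase, and FJX1 (-1.68) complete the set, and every one of them had an adjusted p of 1.6e-04 or less from limma.

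**Figure D2:**
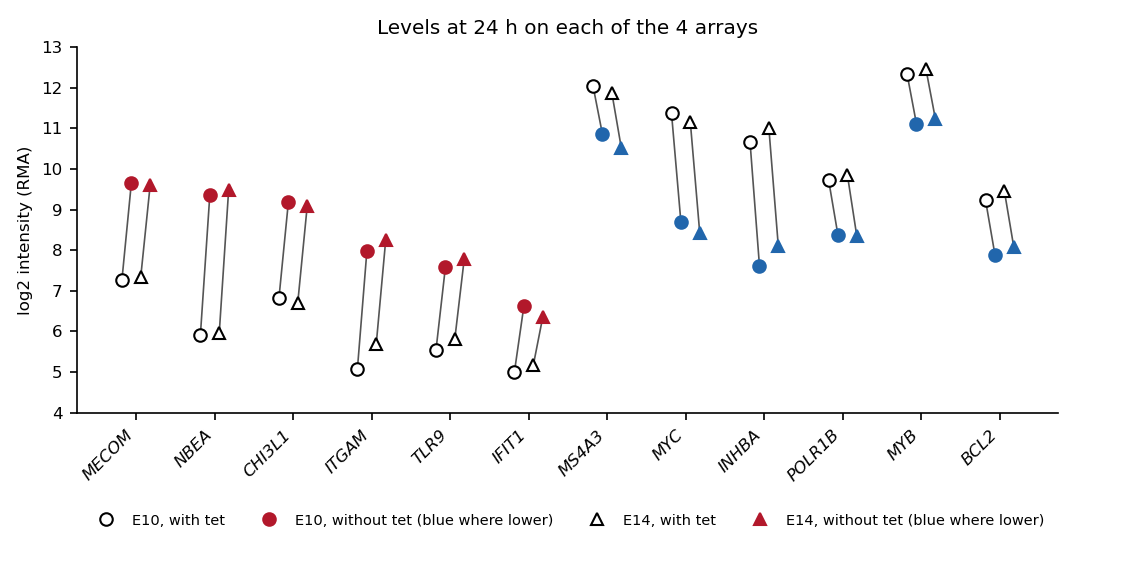
Log2 RMA intensity (y axis) of 12 genes on the 4 arrays at 24 h, with tet (open) and without tet (filled; red where higher, blue where lower), circles for E10 and triangles for E14, and a line joining the cultures of a clone. The 12 were picked among called genes, all of which moved the same way in both clones. Their cultures with and without tet do not overlap, which over all genes held for 25.4% (higher) and 25.0% (lower).

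MYC and its partner MAX bind the E-box, and MYC activates the genes that make ribosomes. Of 33 measured genes of ribosome biogenesis (40 listed), 28 were lower and none was higher. Over all genes, 9.16% were lower and 7.97% higher. In both clones 32 of the 33 were lower. The median change was -0.94, beside 0.01 over all genes. POLR1B, a subunit of RNA polymerase I, went from 9.74 to 8.37 in E10 and from 9.85 to 8.35 in E14 and fell by 1.44 (SE 0.12, limma adjusted p = 2.5e-06). The assembly factors NOP16 (from 12.12 to 10.71 in E10 and from 12.12 to 10.78 in E14) and RRP9 (from 9.47 to 8.11 in E10 and from 9.61 to 8.33 in E14) changed by -1.37 and -1.32, and RRS1 by -1.37 (adjusted p from 1.5e-06 to 1.0e-05, limma). POLR3G, a subunit of RNA polymerase III, had a change of -1.27. FBL (-0.32), NHP2 (-0.30), RRN3 (-0.21), NPM1 (-0.13) and NOP10 (0.07) were not called. The fall thus covered the list without reaching some abundant nucleolar proteins at this threshold. Without the E10 or the E14 pair, 25 and 23 members were lower. Median changes in P2 and U937T at 48 h were -0.58 and -0.53. Among 12 genes of MYC and its dimer partners, 4 were lower, MYC, MNT (-0.47), MAX (-0.37) and MGA (-0.36), and 2 higher, MXD3 (from 8.40 to 9.19 in E10 and from 8.63 to 9.25 in E14; 0.71) and MXD1 (0.48), which encode repressors that compete with MYC for MAX. MNT and MXD1 lost their calls without either pair, and 1 gene in each direction was left.

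The promoter of RRP9 is shown because it holds an E-box that begins at position -5 from the transcription start. Promoter sequences are those of RefSeq, build GRCh38.p14, from 250 bases before to 50 bases after the start, on the strand of the gene, and capitals mark the motif. The RRP9 window is chr3:51941855-51942154 on the minus strand.
RRP9: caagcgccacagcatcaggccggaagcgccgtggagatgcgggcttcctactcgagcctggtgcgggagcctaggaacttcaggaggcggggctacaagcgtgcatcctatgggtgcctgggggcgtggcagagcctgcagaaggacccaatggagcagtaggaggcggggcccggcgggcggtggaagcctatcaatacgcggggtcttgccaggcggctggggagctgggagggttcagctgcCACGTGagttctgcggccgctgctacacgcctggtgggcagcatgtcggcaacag
Of 14003 tested genes with a RefSeq promoter, 9.26% had CACGTG, which reads the same on both strands, in this window. Among genes called lower at 24 h it was found in 237 of 1339 (17.7%), and among those at least 2-fold lower in both clones in 35 of 98 (35.7%). The genes called higher had it in 87 of 1146 (7.59%), and those at least 2-fold higher in both clones in 6 of 105 (5.71%). For ribosome biogenesis the figure was 11 of 27 (40.7%). These are counts of letters, and no binding was measured here.

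Interferon-stimulated genes encode proteins that restrict viruses, and many carry the interferon-stimulated response element in their promoters. Of 39 measured members, 18 were higher and 2 lower, against 7.97% and 9.16% of all genes, with a median change of 0.30. Without the E10 or the E14 pair, 12 and 10 were higher and none lower. IFIT1, which binds viral RNA, went from 5.01 to 6.63 in E10 and from 5.17 to 6.35 in E14 and rose by 1.40 (SE 0.15, limma adjusted p = 2.1e-05). SAMD9L, a restriction factor, went from 6.59 to 7.79 in E10 and from 6.67 to 7.77 in E14 and rose by 1.15 (SE 0.12, limma adjusted p = 2.0e-05). IFIT3 went from 7.65 to 8.69 in E10 and from 7.67 to 8.79 in E14, a change of 1.08, and IFIT2 from 5.49 to 6.54 in E10 and from 5.39 to 6.78 in E14, a change of 1.22, which was not called without the E14 pair (limma adjusted p = 0.076). OAS3 (0.83), HERC5 (0.80), HERC6 (0.84) and IFIT5 (0.91) were higher too. The lower ones were IFITM2 (-0.34) and MX2 (-0.31), and ISG15 (0.06), MX1 (0.12), IFI44 (0.16) and RSAD2 (0.38) were not called. The list thus held called and uncalled members, and RSAD2 was called higher without the E14 pair alone. In the control lines at 48 h IFIT1 changed by 0.61 in P2 and 0.74 in U937T. In P2 and U937T at 48 h the median of the list was 0.23 and 0.21.

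Both IFIT promoters are shown because their windows hold paired copies of a core of the response element, GAAA, any 2 bases, GAAA (letters GAAANNGAAA), here on the strand opposite to the gene, so that it is printed as TTTCNNTTTC. The IFIT1 window is chr10:89392373-89392672 and the IFIT3 window chr10:89327747-89328046, both on the plus strand.
IFIT1: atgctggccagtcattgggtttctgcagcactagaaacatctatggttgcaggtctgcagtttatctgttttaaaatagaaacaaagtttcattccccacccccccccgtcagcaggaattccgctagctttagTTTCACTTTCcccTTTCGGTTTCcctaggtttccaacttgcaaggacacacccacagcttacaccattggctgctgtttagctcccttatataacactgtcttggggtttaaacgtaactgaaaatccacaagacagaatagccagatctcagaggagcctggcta
IFIT3: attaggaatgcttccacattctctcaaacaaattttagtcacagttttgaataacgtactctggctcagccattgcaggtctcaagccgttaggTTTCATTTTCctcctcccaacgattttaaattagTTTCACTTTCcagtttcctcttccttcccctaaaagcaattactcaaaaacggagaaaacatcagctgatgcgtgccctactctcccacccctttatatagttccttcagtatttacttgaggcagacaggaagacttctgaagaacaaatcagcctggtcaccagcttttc
In IFIT1 the copies begin at positions -116 and -103 from the start, and in IFIT3 at -156 and -122. The motif was present on either strand in 2.86% of all tested promoters, in 21 of 31 (67.7%) of the interferon-stimulated list, in 3.93% of promoters of genes called higher and in 3.29% of those of genes called lower at 24 h.

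Of 26 genes of IRF and STAT factors and Toll-like receptors, which sense microbes and pass the signal on, 8 were higher and 3 lower, against 7.97% and 9.16% of all genes. TLR9, a receptor for microbial DNA, went from 5.54 to 7.57 in E10 and from 5.81 to 7.78 in E14 and rose by 2.00 (SE 0.18, limma adjusted p = 5.3e-06). TLR1, a receptor for bacterial lipopeptides, went from 4.81 to 6.55 in E10 and from 4.59 to 6.12 in E14 and rose by 1.64 (SE 0.16, limma adjusted p = 9.0e-06), and IRF7, which drives type I interferon genes, went from 6.70 to 8.26 in E10 and from 6.84 to 8.49 in E14 and rose by 1.60 (SE 0.15, limma adjusted p = 5.9e-06). TLR4, the receptor for lipopolysaccharide, went the other way, from 7.06 to 5.80 in E10 and from 6.68 to 5.27 in E14, and fell by 1.34 (SE 0.18, limma adjusted p = 1.2e-04). Within this family the intracellular receptors TLR9 and TLR3 (1.04) rose, TLR7 (0.35) and TLR8 (-0.04) were not called, and UNC93B1 (-0.71), which carries intracellular receptors to endosomes, fell. Among the factors, IRF9 (0.96), IRF1 (0.86), IRF2 (0.85) and STAT3 (0.84) rose and IRF8 (-0.95), a factor of monocyte development, fell. IRF9 lost its call without the E10 pair and also without the E14 pair. Without the E10 or the E14 pair, 7 were higher and 3 lower. Changes in the control lines at 48 h were 0.68 in P2 and 0.99 in U937T for TLR9, 1.35 in P2 and 1.24 in U937T for TLR1, 0.83 in P2 and 0.78 in U937T for IRF7 and -0.27 in P2 and 0.20 in U937T for TLR4.

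**Figure D3:**
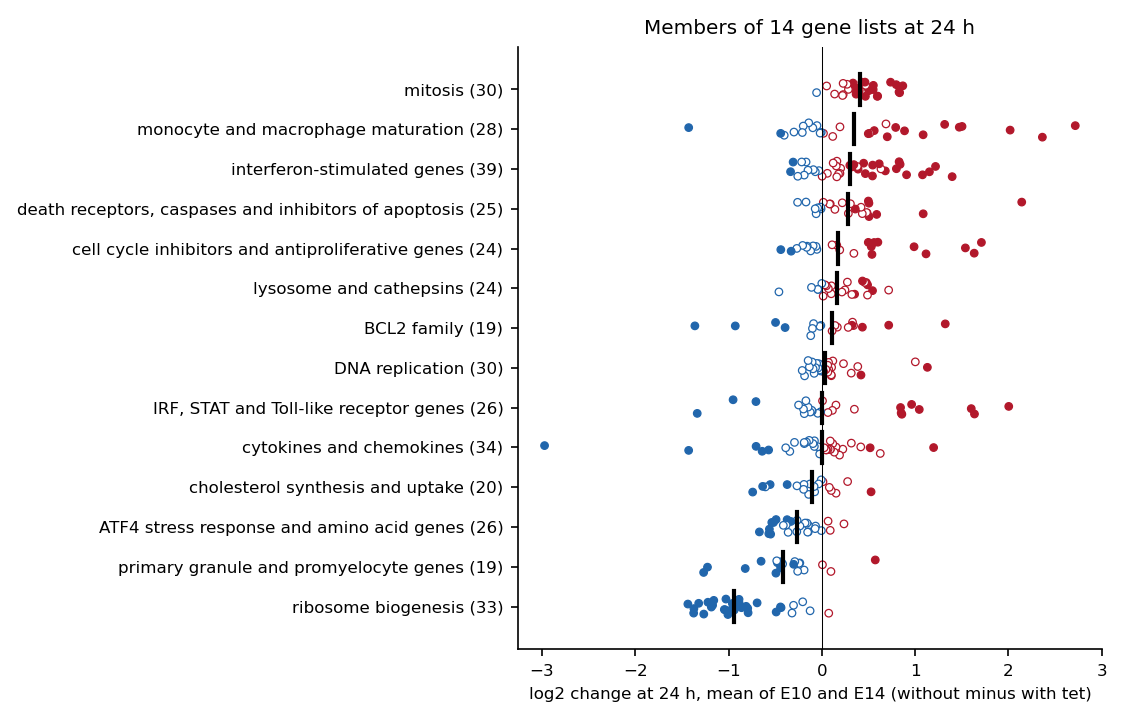
Log2 change at 24 h (x axis) of the genes in 14 lists (how many were measured is in brackets), 1 point per gene, filled where called, and a black bar at the median. Mitosis has the highest median (0.41) and ribosome biogenesis the lowest (-0.94), and most other lists hold members on both sides of 0.

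Of 30 genes of mitosis, 19 were higher, against 7.97% of all genes, and none lower, with a median of 0.41, and 28 of the 30 were higher in both clones. CENPE, a kinetochore motor, went from 9.79 to 10.65 in E10 and from 9.85 to 10.72 in E14 and rose by 0.87 (SE 0.15, limma adjusted p = 9.5e-04), ECT2, an activator of RhoA in cytokinesis, by 0.83 (SE 0.10, limma adjusted p = 3.9e-05), and NUF2, a kinetochore protein, by 0.80 (SE 0.11, limma adjusted p = 1.7e-04). Changes were modest, up to 1.82-fold. They cannot be set against the cell cycle distribution, which was not analysed here. Only 6 of the 19 were called without the E10 pair and 6 without the E14 pair, and the medians in P2 and U937T at 48 h were 0.37 and 0.30. Of 30 genes of DNA replication, 2 were higher, CCNE2 (from 9.51 to 10.68 in E10 and from 9.21 to 10.30 in E14; 1.13), a cyclin of S phase entry, and RRM2 (0.42), which was not called without either pair, and none was lower (median 0.03). Of 24 cell cycle inhibitors and antiproliferative genes, 10 were higher and 2 lower, against 7.97% and 9.16% of all genes. CDKN2D, which encodes p19, went from 6.10 to 8.11 in E10 and from 6.31 to 7.71 in E14 and rose by 1.71 (SE 0.14, limma adjusted p = 3.6e-06), and CDKN1A, which encodes p21, went from 7.69 to 9.13 in E10 and from 7.51 to 9.33 in E14 and rose by 1.63 (SE 0.17, limma adjusted p = 2.0e-05). CCNG2 (from 7.91 to 9.42 in E10 and from 7.88 to 9.45 in E14; 1.54), a cyclin of resting cells, KLF2 (1.12) and CDKN1C (0.99) were higher as well, while GADD45A (-0.33) and TOB2 (-0.44) were lower. Without the E10 or the E14 pair, 5 and 4 members were higher and none lower. The control lines changed too at 48 h: CDKN1A changed by 1.55 in P2 and 1.05 in U937T, CCNG2 by 1.69 in P2 and 1.03 in U937T and CDKN2D by 1.37 in P2 and 1.25 in U937T, and the medians of the list were 0.25 in P2 and 0.32 in U937T, against 0.24 in E10 and 0.14 in E14 at 24 h.

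MS4A3, a membrane-spanning protein of granulocyte and monocyte precursors, went from 12.05 to 10.86 in E10 and from 11.87 to 10.53 in E14 and fell by 1.27 (SE 0.10, limma adjusted p = 1.9e-06), or 2.41-fold. Its other probe set changed by -1.28 in E10 and -1.39 in E14. In the control lines it changed at 48 h by -0.29 in P2 and -0.20 in U937T. The MS4A3 window, chr11:60056415-60056714 on the plus strand, is shown because MS4A3 gave the study its title. The motif AGATAA occurs in it once, beginning at position -55 from the start.
MS4A3: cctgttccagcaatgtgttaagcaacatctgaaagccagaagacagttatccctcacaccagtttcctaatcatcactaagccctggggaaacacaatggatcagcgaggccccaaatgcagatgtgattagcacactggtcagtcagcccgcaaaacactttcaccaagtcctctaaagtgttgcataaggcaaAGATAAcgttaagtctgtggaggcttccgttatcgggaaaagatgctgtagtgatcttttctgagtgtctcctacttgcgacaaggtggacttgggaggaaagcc
AGATAA or its reverse complement TTATCT was found in 7.09% of all tested promoters, in 51 of 1339 (3.81%) of the genes called lower and in 63 of 1146 (5.50%) of those called higher. This motif is shorter than those that EVI1 is known to bind, and a match of its letters is no EVI1 binding site. MS4A6A (-0.61) was the other called member among 12 measured MS4A genes, and it lost its call without either pair (limma adjusted p = 0.30 without E10 and 0.070 without E14), while MS4A7 was called lower without the E14 pair alone.

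Of 19 genes of primary granules and promyelocytes, MS4A3 included, 9 were lower and 1 higher, against 9.16% and 7.97% of all genes, with a median of -0.42, and 16 were lower in both clones. MYB, a factor of progenitor growth, went from 12.34 to 11.11 in E10 and from 12.46 to 11.24 in E14 and fell by 1.23 (SE 0.10, limma adjusted p = 3.6e-06). GFI1, a transcriptional repressor that granulocyte development requires, went from 10.79 to 10.07 in E10 and from 10.70 to 10.13 in E14 (-0.65), and SERPINB1, an inhibitor of granule proteases, from 11.17 to 10.34 in E10 and from 10.63 to 9.83 in E14 (-0.82). The proteases CTSG (-0.49), ELANE (-0.48) and PRTN3 (-0.44) fell less, MPO (-0.19) and AZU1 (-0.26) were not called, and CFD (0.57), the complement protease factor D, was higher. CTSG, ELANE, PRTN3 and CEBPA lost their calls without the E10 pair and also without the E14 pair. PRTN3 lost its call without the block for the clone as well. CFD was not called without the E14 pair. Lower without the E10 or the E14 pair were 4 and 5 members. The medians in P2 and U937T at 48 h were -0.24 and -0.14.

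Of 28 genes of monocyte and macrophage maturation, 12 were higher and 2 lower, against 7.97% and 9.16% of all genes, with a median of 0.35. Next to ITGAM and CHI3L1, the Fc receptor gamma chain FCER1G went from 8.80 to 10.67 in E10 and from 8.34 to 10.50 in E14 and rose by 2.02 (SE 0.19, limma adjusted p = 6.8e-06), and NCF1, a subunit of the phagocyte oxidase, went from 6.07 to 7.57 in E10 and from 6.19 to 7.69 in E14 and was 2.83-fold higher (limma adjusted p = 3.3e-05). TYROBP (1.47), an adaptor of activating receptors, and S100A9 (1.32), a calcium-binding protein of monocytes, were higher. The lectin receptor CLEC5A fell (-1.43), as did THBD (-0.44), and CD14 (-0.21), CD163 (-0.02), FCGR1A (-0.40) and CYBB (-0.20) were not called. The list thus split, and the medians in the clones were 0.13 in E10 and 0.44 in E14. Without the E14 pair 6 members were higher, and without the E10 pair 8, with 1 lower in both fits. In P2 and U937T at 48 h the medians were 0.43 and 0.58, and FCER1G changed by 2.40 in P2 and 2.14 in U937T, NCF1 by 3.50 in P2 and 2.50 in U937T, TYROBP by 2.63 in P2 and 1.92 in U937T and S100A9 by 2.12 in P2 and 2.39 in U937T, so that these genes were raised as much or more there. NCF1 shares sequence with pseudogene copies, so that its probe set may read those too.

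Of 15 complement and scavenging surface proteins, 4 were higher, against 7.97% of all genes, and none lower. CFP, which encodes the complement factor properdin, went from 5.50 to 7.44 in E10 and from 5.74 to 7.65 in E14 and rose by 1.92 (SE 0.09, limma adjusted p = 3.9e-08). In the control lines at 48 h CFP rose as much as in the clones at 24 h, by 1.99 in P2 and 1.94 in U937T. The clones at 48 h had larger CFP changes, 4.36 in E10 and 4.32 in E14. The list had medians of 0.16 in P2 and 0.26 in U937T. CD52, a small lipid-anchored glycoprotein of leukocytes, went from 5.32 to 6.46 in E10 and from 5.21 to 6.30 in E14 and rose by 1.12 (SE 0.18, limma adjusted p = 6.0e-04), whereas its other probe set, which had the lower mean in the arrays used for the choice, went from 4.30 to 7.17 in E10 and from 4.48 to 7.46 in E14. Size of the CD52 change thus depends on the probe set. At 48 h the CD52 probe set used here changed by 0.74 in P2 and 1.39 in U937T. In the clones at that time it changed by 3.87 in E10 and 4.22 in E14. CD300A (0.93), an inhibitory receptor, and C3 (0.86) were the other 2, and C3 was not called without the E14 pair (limma adjusted p = 0.063), whereas all 4 were called without the E10 pair.

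In the BCL2 family, which decides on the release of cytochrome c from mitochondria, 4 of 19 members were higher and 4 lower, against 7.97% and 9.16% of all genes. BCL2, which protects from apoptosis, went from 9.22 to 7.88 in E10 and from 9.45 to 8.07 in E14 and fell by 1.36 (SE 0.14, limma adjusted p = 1.7e-05). BMF, which promotes it, went from 6.71 to 7.75 in E10 and from 6.37 to 7.98 in E14 and rose by 1.32 (SE 0.14, limma adjusted p = 2.0e-05). HRK (from 6.32 to 5.35 in E10 and from 6.30 to 5.41 in E14; -0.93) and BCL2L11 (-0.50), which also promote it, were lower, and BNIP3L (0.72), BCL2L1 (0.43) and MCL1 (0.32) higher. BMF, BNIP3L, BCL2 and HRK were called without either pair, and the other 4 were not. In the control lines at 48 h, BMF changed by 0.49 in P2 and 0.46 in U937T and BCL2 by -0.44 in P2 and -0.84 in U937T. Of 25 death receptors, caspases and inhibitors of apoptosis, 8 were higher and none lower (median 0.28). BAG3, a co-chaperone of HSP70, went from 6.18 to 8.28 in E10 and from 6.41 to 8.60 in E14 and rose by 2.14 (SE 0.13, limma adjusted p = 2.8e-07). TNFSF10, the death ligand TRAIL, went from 4.53 to 5.73 in E10 and from 4.46 to 5.43 in E14, a change of 1.09, and CASP8 from 8.69 to 9.44 in E10 and from 8.82 to 9.24 in E14, a change of 0.59. Without the E10 or the E14 pair, 1 and 2 of the 25 were higher, TNFSF10 in neither fit. In the control lines at 48 h TNFSF10 had changes of 1.01 in P2 and 2.12 in U937T, and BAG3 of 1.06 in P2 and 0.95 in U937T.

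Among 34 cytokines and chemokines, 5 were lower and 2 higher, against 9.16% and 7.97% of all genes. CXCL8, the neutrophil chemokine interleukin-8, went from 6.75 to 5.29 in E10 and from 6.94 to 5.55 in E14 and fell by 1.43 (SE 0.15, limma adjusted p = 1.5e-05). Its other probe set changed by -0.60 in E10 and -0.49 in E14 and was not called (limma adjusted p = 0.18). CCL5 (from 10.12 to 9.43 in E10 and from 10.12 to 9.40 in E14; -0.70), IL12A (-0.64) and VEGFA (-0.57) were lower next to INHBA, and IL1RN (from 6.69 to 7.84 in E10 and from 7.02 to 8.26 in E14; 1.20), the antagonist of the interleukin-1 receptor, and IL18 (0.52) were higher. The ligand IL18 and the receptor chains IL18R1 and IL18RAP thus moved in opposite directions. IL18 lost its call without the E10 pair and also without the E14 pair, whereas both receptor chains kept theirs. TNF (0.05), IL6 (-0.09), CXCL10 (-0.17) and IL1B (0.22) were not called, and levels of the 34 ran from 3.21 to 12.80. Without the E14 pair 3 were lower and 1 higher, and without the E10 pair 4 and 1. At 48 h the change of IL1RN was 2.23 in P2 and 2.07 in U937T, more than in the clones at 24 h. In the clones at 48 h it was 2.31 in E10 and 2.19 in E14. Among 24 growth factor receptors of myeloid cells 5 were higher, TGFBR2 (from 8.41 to 9.34 in E10 and from 8.12 to 9.19 in E14; 1.00) and IL4R (from 8.13 to 8.98 in E10 and from 8.24 to 9.10 in E14; 0.86) with the largest changes, and the 2 lower ones were the interleukin-18 receptor chains. With the E10 or the E14 pair left out 2 and 3 were higher, TGFBR2 and IL4R in both fits, and 2 lower. In the control lines at 48 h TGFBR2 changed by 1.36 in P2 and 1.30 in U937T and IL4R by 1.04 in P2 and 0.99 in U937T.

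Of 25 immediate early genes, which respond to growth signals within minutes, 3 were higher and 5 lower, against 7.97% and 9.16% of all genes, and 3 and 2 without the E10 or 2 and 3 without the E14 pair. FOSL1, a partner of JUN, went from 7.90 to 6.80 in E10 and from 8.22 to 7.02 in E14 and fell by 1.15 (SE 0.10, limma adjusted p = 3.2e-06). DUSP2 (from 7.68 to 6.61 in E10 and from 7.94 to 6.77 in E14; -1.12), a phosphatase of MAP kinases, fell as well. EGR1 went from 7.83 to 6.22 in E10 and from 7.03 to 6.34 in E14 (-1.15), a drop that was not called without the E10 pair (limma adjusted p = 0.19) and that was as large in the control lines at 48 h (-1.15 in P2 and -1.72 in U937T). IER5 (from 9.25 to 10.27 in E10 and from 9.05 to 10.08 in E14; 1.02) was higher. Of 18 NF-kB factors and feedback targets 4 were higher, with IER3 (from 6.15 to 7.65 in E10 and from 5.92 to 7.76 in E14; 1.67) first, and 3 lower, with TNFAIP8 (-0.68) first. Without the E10 pair 2 were higher and 1 lower, and without the E14 pair 2 and none. Of 18 stem and progenitor genes 3 were lower, MYB, SPI1 (-0.66), the factor PU.1 of myeloid fate, and LYL1 (-0.49), and 1 was higher, MEIS1 (0.40). Only MYB was called without either pair.

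Among genes of metabolism, HK2, the hexokinase that starts glycolysis, went from 10.41 to 9.06 in E10 and from 10.63 to 9.18 in E14 and fell by 1.40 (SE 0.09, limma adjusted p = 5.0e-07). Of 22 glycolysis genes 4 were lower and 2 higher, the latter PFKM (from 5.64 to 6.53 in E10 and from 5.75 to 6.61 in E14; 0.88), a phosphofructokinase, and SLC2A3 (0.82), a glucose transporter. The control lines at 48 h had list medians of -0.02 in P2 and 0.03 in U937T. Over all genes, 9.16% were lower and 7.97% higher, and without the E10 or the E14 pair 3 and 2 of the 22 were lower and PFKM alone higher. Of 26 targets of the stress factor ATF4 and amino acid genes, 9 were lower and none higher, with a median of -0.27 (-0.23 in E10 and -0.34 in E14). At 48 h the control lines had list medians of -0.34 in P2 and -0.41 in U937T. The lower genes included the amino acid transporters SLC7A5 (from 12.58 to 11.85 in E10 and from 12.47 to 11.86 in E14; -0.67), SLC7A1 (-0.57) and SLC1A5 (-0.56). Only 4 were lower without the E10 pair and 1, SLC7A5, without the E14 pair. Of 20 genes of cholesterol synthesis and uptake 4 were lower, DHCR7 (from 9.88 to 9.28 in E10 and from 10.16 to 9.28 in E14; -0.74), INSIG1 (-0.63) and LSS (-0.55) among them, and 1 was higher, STARD4 (0.53). Here the medians at 48 h were 0.06 in P2 and 0.05 in U937T. Without the E10 pair 2 of the 20 were lower, without the E14 pair DHCR7 alone, and none was higher in either fit. In 17 heat shock chaperones 2 were higher, BAG3 and DNAJB4 (0.41), and 3 lower, HSF1 (-0.57) and HSPA5 (-0.30) among them, none of which was lower without either pair. Of 24 lysosomal genes 5 were higher and none lower (median 0.17), 3 of them subunits of the proton pump, ATP6V1H (0.54), ATP6V1A (0.49) and ATP6V0D1 (0.48), of which ATP6V1H alone was called without the E10 and ATP6V1A alone without the E14 pair. The lysosomal list had medians of 0.26 in P2 and 0.27 in U937T at 48 h, beside 0.18 in E10 and 0.16 in E14 at 24 h. Of 23 antigen presentation genes 4 were higher, with HLA-E (from 10.72 to 11.37 in E10 and from 10.58 to 11.22 in E14; 0.65) first, against 7.97% of all genes, and TAP2 (-0.61) was lower. Only HLA-E and HLA-DMA of the 4 were called without the E10 pair and HLA-E without the E14 pair, while TAP2 was called in both fits.

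Markers of other cell types were mostly at low signal. A level of at least 6 at 24 h was found for 14 of 18 monocytic line markers, 3 of 17 lymphoid markers, 6 of 14 erythroid and megakaryocyte markers, and 5 of 18 epithelial and fibroblast markers. The mean level of the monocytic markers went from 8.03 to 8.22 in E10 and from 7.92 to 8.14 in E14, and 5 were higher and 2 lower, of which FCER1G and TYROBP alone were called without either pair. Of the other lists, the mean levels lay between 5.29 and 6.24 on all 4 arrays. Called members were NKG7 (0.61) of the lymphoid, PDGFRB (0.57) of the epithelial and fibroblast, and KLF1 (from 7.25 to 5.74 in E10 and from 7.10 to 5.98 in E14; -1.31) and TFRC (-0.48) of the erythroid list. These calls, and those of the monocytic markers, stand beside 7.97% of all genes called higher and 9.16% called lower. PDGFRB was not called without the E10 pair, and NKG7 and TFRC not without the E14 pair. KLF1 is a factor of red cell genes and TFRC the transferrin receptor of dividing cells.

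How the response at 24 h differs from those at 12 and 48 h was tested by differences between the changes. Between 12 and 24 h, the change became higher for 365 genes (2.04%) and lower for 403 (2.26%). ITGAM (2.73), CHI3L1 (2.37), TMT1A (2.27), ITGB2-AS1 (2.25) and TLR9 (2.10) led the former. MYC (-2.13), INHBA (-1.93), CCDC26 (-1.73), WDR49 (-1.52) and PTGER2 (-1.46), a prostaglandin E2 receptor, led the latter. INHBA had already changed by -0.83 in E10 and -1.26 in E14 at 12 h, whereas the change of ITGAM at that time was 0.15 in E10 and -0.17 in E14. By list, 23 of 33 ribosome biogenesis genes had a lower change at 24 h than at 12 h and none a higher one, and 8 of 39 interferon-stimulated and 9 of 28 maturation genes had a higher one. None of the 30 mitosis genes differed by this test. The counts over all genes were 109 and 94 without the E10 pair at 24 h and 86 and 48 without the E14 pair.

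Between 24 and 48 h, the change became higher for 369 genes (2.07%) and lower for 291 (1.63%). CD52 (2.93), ITGAM (2.56), TYROBP (2.46), S100A8 (2.46) and CFP (2.42) led the former. MS4A3 (-2.54), GINS4 (-2.52), CTH (-1.84), ALDH1L2 (-1.80) and PRTN3 (-1.73) led the latter. MS4A3 thus went from -1.19 in E10 and -1.35 in E14 at 24 h to -3.80 in E10 and -3.81 in E14 at 48 h. By contrast, MYC (-3.41 in E10 and -3.53 in E14), INHBA (-3.34 in E10 and -3.24 in E14) and TMT1A (2.77 in E10 and 2.83 in E14) at 48 h did not pass the test of a difference from 24 h (limma adjusted p = 0.062, 0.41 and 0.82). GINS4 differed between the clones at 24 h (1.80 in E10, 0.20 in E14). Of 26 ATF4 targets and amino acid genes 15 had a lower change at 48 h than at 24 h, of 39 interferon-stimulated genes 15 a higher one, and of 30 replication genes 6 a lower one. Without the E10 pair at 24 h the counts over all genes were 72 and 48, and without the E14 pair 93 and 64.

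Among genes changed at least 2-fold at 24 h, 6 turned back by 48 h by the same test, and they are named after their values had been seen. C12orf75 went from 2.01 in E10 and 2.44 in E14 at 24 h to 1.12 in E10 and 1.10 in E14 at 48 h. PALLD, an actin-binding protein, went from 1.94 in E10 and 1.75 in E14 to 0.26 in E10 and 0.47 in E14. CXCL8 went from -1.46 in E10 and -1.39 in E14 to 0.25 in E10 and 0.03 in E14. TNFRSF21, SCD, a fatty acid desaturase, and ZEB2, a repressor of epithelial genes, had changes of -1.35, -1.05 and -1.03 at 24 h that were less negative at 48 h by 0.58, 0.56 and 0.55.

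**Figure D4:**
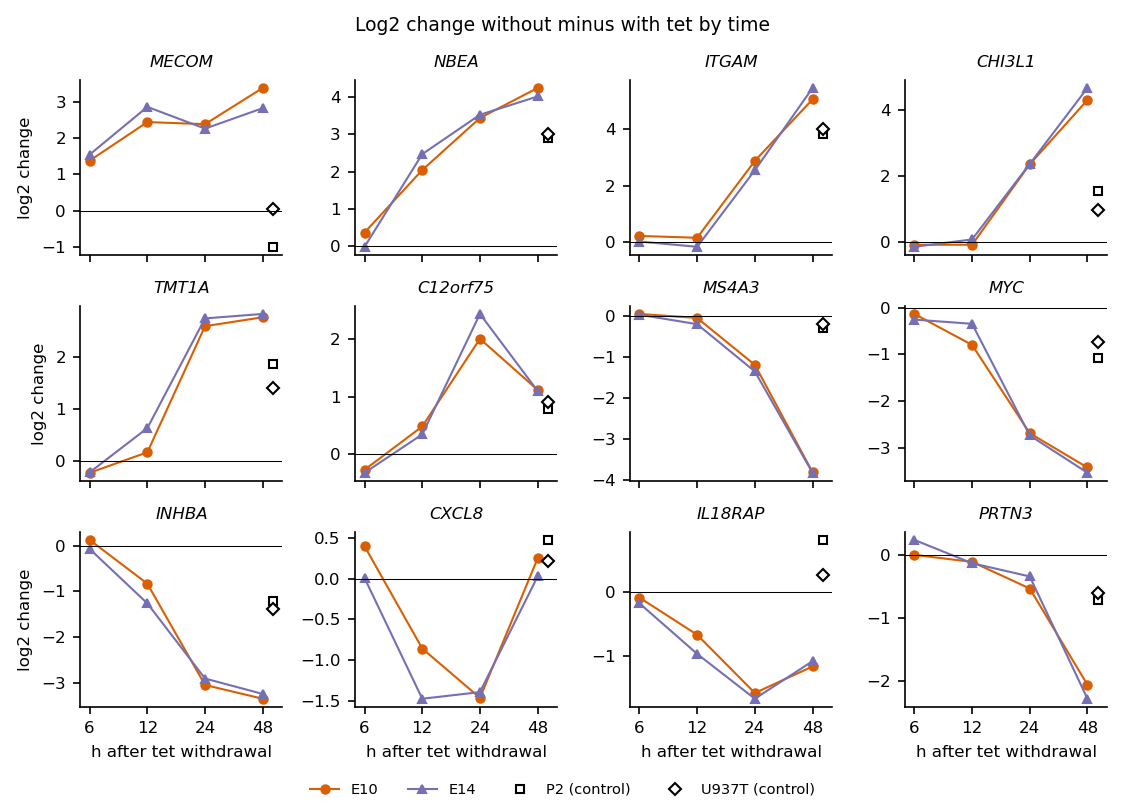
Log2 change without minus with tet (y axis, scaled for each gene) of 12 genes over the 4 times (x axis, h after withdrawal, evenly spaced) for E10 and E14, with open symbols for P2 and U937T (48 h). MECOM is up from 6 h, and MYC, ITGAM and MS4A3 move between 12 and 24 h. ITGAM (by 2.56) and MS4A3 (by -2.54) move further between 24 and 48 h, when PRTN3 moves too, and C12orf75 and CXCL8 turn back.

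At least 2-fold in both clones at 24 h, 135 genes were higher (0.756%) and 128 lower (0.717%). A 2-fold change in both clones was also seen at 48 h for 121 of the 135 and 115 of the 128, out of 484 and 435 at that time, and at 12 h for 2 and none. The control lines at 48 h had 966 genes higher (5.41%) and 946 lower (5.30%) by limma. Of the genes called at 24 h in the clones, 682 of the higher (47.9%) and 767 of the lower ones (46.9%) were among them, which is 70.6% and 81.1% of the calls in the control lines. The change at 24 h in both clones was beyond that of both control lines at 48 h for 83 of the 135 and for 124 of the 128. Both control lines were under 1.5-fold in the same direction for 15 of the higher and 22 of the lower genes, which are named because of these values. The 135 and 128 genes were picked by their change in the clones, which favors values beyond those of the control lines. These counts are descriptions, and shares over all genes were not computed.

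The 15 higher genes were, next to MECOM, PTP4A3 (1.57 in E10 and 1.85 in E14, against 0.50 in P2 and 0.47 in U937T), a phosphatase linked to metastasis, LRRK2, a kinase known from Parkinson disease, BMF, KANK2, JUP, the junction protein plakoglobin, ACY3, FOXO6, AIM2, a sensor of cytosolic DNA, MAGEF1, SAMD9L, CLCN4, a chloride transporter, SLC41A2, CPNE2 and TLR3. LRRK2 changed by 1.57 in E10 and 1.14 in E14 at 24 h and by 0.74 and 0.82 at 48 h, against 0.15 in P2 and 0.37 in U937T. The lower ones held MS4A3, MYB, HK2, TLR4, FOSL1, the ribosome biogenesis genes NOLC1 and BYSL, the fucosyltransferase FUT4, the phosphodiesterase PDE4B, ZEB2, the nucleotide receptor P2RY2, the prostaglandin receptor PTGER3, PYCR3, an enzyme of proline synthesis, TENT5A, DCAF4, TMEM132B, AKAP1 and RAB33A. In 4 of the 22, IL18R1, IL18RAP, CXCL8 and CLEC5A, both control lines were above 0: IL18RAP changed by -1.58 in E10 and -1.67 in E14, against 0.82 in P2 and 0.27 in U937T, and CLEC5A by -1.42 and -1.43, beside 0.52 and 0.08. Because the times differ, no test of the clones against the control lines was made. At the shared time of 48 h, CXCL8 stood at 0.25 (E10), 0.03 (E14), 0.48 (P2) and 0.21 (U937T). SLC41A2 then stood at 0.37 (E10), 0.21 (E14), 0.07 (P2) and 0.29 (U937T). The contrast seen for CXCL8 and SLC41A2 is thus one between times and was absent at 48 h. For the other genes of both sets, both clones were still beyond both control lines at 48 h.

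**Figure D5:**
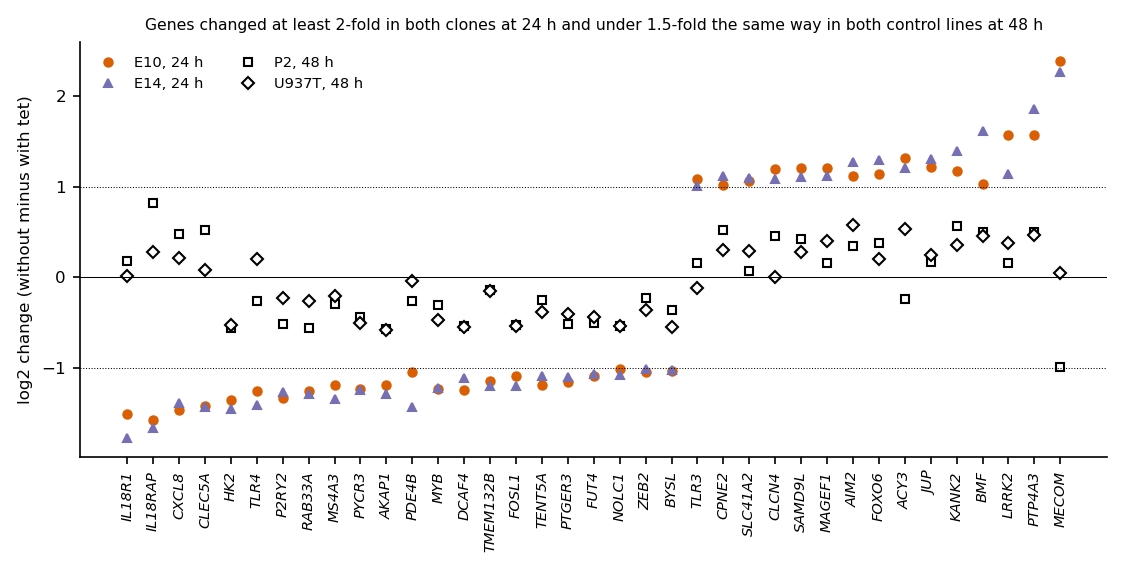
Log2 change (y axis) of the 37 genes changed at least 2-fold in both clones at 24 h (filled) whose change in P2 and U937T at 48 h (open) was under 1.5-fold in the same direction, ordered by the mean of the clones. MECOM (2.38 and 2.26) has the largest increase, and IL18R1, IL18RAP, CXCL8 and CLEC5A have control values above 0. At 48 h CXCL8 was above 0 in the clones too (0.25 for E10, 0.03 for E14).

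The clones differed most in genes that were not called. MATR3, a nuclear matrix protein, went from 8.43 to 9.62 in E10 and from 10.97 to 9.54 in E14. SPN, the leukocyte sialoglycoprotein CD43, went from 8.91 to 10.76 in E10 and from 10.85 to 10.68 in E14, CENPI, a centromere protein, from 5.96 to 8.47 in E10 and from 8.01 to 8.63 in E14, and TRMT2B, a mitochondrial tRNA methyltransferase, from 6.21 to 8.38 in E10 and from 8.14 to 8.17 in E14. Of the other SPN probe sets, 3 had a lower level without tet in E10, with changes of -0.70, -0.61 and -0.15, and 1 a higher one (0.59). In all 4 of these genes, the E10 array with tet was the lowest of the 4 arrays. MALAT1, a long noncoding RNA of the nucleus, went from 11.21 to 9.97 in E10 and from 10.53 to 11.21 in E14. None of the 5 passed the test (adjusted p from 0.12 to 0.95 from limma).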

How the data were processed

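The authors deposited log2 intensities of 54675 probe sets on 20 Affymetrix HG-U133 Plus 2.0 arrays, made by Robust Multi-array Analysis, and these log2 values were used as deposited. The genome build of that step is not given in the sources used here. Groups came from the labels, with E10 and E14 as replicates 1 and 2. Probe sets with 1 gene symbol (41097; 1801 have several and 11777 none) needed a mean of at least 3 in each EVI1 clone (24 h, 48 h) and each control line (48 h), and each gene was read by its brightest one (17860 genes).

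All 20 arrays were fitted in limma 3.58.1 (R 4.3.3) with 10 groups and the line as a block (8 residual and 5.74 prior degrees of freedom), with Benjamini-Hochberg adjustment. The block uses the clone of each culture: across genes, E10 minus E14 correlated by 0.401 between the cultures with and without tet at 24 h, and by a median of 0.112 over 28 pairs of groups. The number of arrays limits the precision. The block takes out the constant difference between the lines. P-values measure the spread left between the lines of a group, pooled over the 10 groups. Most of it comes from times other than 24 h, and each culture has 1 array.

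The comparisons and 28 gene lists were chosen with earlier results of these data known. Genes named are MECOM, MS4A3 and CD52, the 12 largest called changes in each direction, up to 4 called members per list by size, the 5 largest called differences from 12 and 48 h in each direction, and the 5 largest differences between the clones; others were added after their values had been seen. No p-value was computed for a list. Promoters were searched on both strands for an E-box, a GATA site and a core of the interferon response element, and those of 4 named genes are printed. The fit was tested on simulated data with 200 changed genes.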

Additional observations from a re-analysis of the deposited data

Results flagged for a closer look

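These results stood out because the change at 24 h differed by test from that at 12 or 48 h. For 24 against 12 h, 365 genes had a higher and 403 a lower change; the differences were 2.73 for ITGAM, 2.37 for CHI3L1, 2.27 for TMT1A, 2.25 for ITGB2-AS1 and 2.10 for TLR9, and -2.13 for MYC, -1.93 for INHBA, -1.73 for CCDC26, -1.52 for WDR49 and -1.46 for PTGER2. For 48 against 24 h, 369 genes had a higher and 291 a lower change; the differences were 2.93 for CD52, 2.56 for ITGAM, 2.46 for TYROBP, 2.46 for S100A8 and 2.42 for CFP, and -2.54 for MS4A3, -2.52 for GINS4, -1.84 for CTH, -1.80 for ALDH1L2 and -1.73 for PRTN3.

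MATR3, SPN and MALAT1 moved in opposite directions in E10 and E14 at 24 h, with a change in E10 minus that in E14 of 2.62, 2.02 and -1.93. The difference was not tested, as each clone has 1 pair of arrays. For SPN it held for the brightest of 5 probe sets, whereas 3 of the other 4 were lower without tet in E10, and the values above belong to the probe set used for each gene. Outside the genes tested, 6 probe sets with no gene symbol were at least 2-fold lower in both clones at 24 h while both control lines were under 1.5-fold lower at 48 h.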

How the results depend on the processing

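No called direction was reversed under the alternatives run, apart from FOLR2 (0.34, and -0.43 with the other probe set) and SRR (0.48 and -0.71), which were called in opposite directions when each gene was read by its most variable probe set. Requiring a 2-fold change beside the adjusted p gave 173 higher and 175 lower genes at 24 h, 122 and 69 for 24 against 12 h, and 101 and 55 for 48 against 24 h. With the most variable probe set, these differences gave 207 and 200, and 223 and 134. Leaving out the pair of 1 clone at 24 h gave 460 to 525 higher and 584 to 766 lower genes at 24 h, 86 to 109 and 48 to 94 for 24 against 12 h, and 72 to 93 and 48 to 64 for 48 against 24 h. A 1.5-fold minimum in both clones gave 474 and 575 genes, and a 2-fold change in 1 clone alone 184 higher and 154 to 197 lower. No replicate block for the clone gave 1266 and 1476 genes at 24 h, a covariate for the 3′ to 5′ difference 1638 and 1895, and the 4 arrays at 24 h by themselves 1261 and 1391, with 1 residual degree of freedom. Of 119 named genes called at 24 h, 89 and 80 kept their call without the E10 or the E14 pair, 102 with the most variable probe set, 113 without the block, 114 on the 4 arrays alone, and all of those tested without the intensity filter. The 43 that lost it without at least 1 of the pairs had changed by at most 1.44 in either direction in the fit of all arrays. The cause of these differences was not tested.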
